A study of Mus musculus with 15 samples.

Results

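The motile cilia genes are 38 of the 56748 genes in a table of read counts from mouse kidney and lung. They were chosen by gene symbol as known parts of the beating cilium or of the program that builds it, and all 38 symbols were found, each in 1 row. By role they comprised 4 regulators of the program, 10 axonemal dynein heavy chains, 5 dynein intermediate chains and assembly factors, 3 genes of the molecular ruler and the nexin-dynein regulatory complex, 3 radial spoke genes, 4 central pair genes and 9 genes of other axonemal or microtubule-associated proteins.

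Whole-tissue RNA was sequenced in 5 groups of 3 libraries, all from wild-type male C57Bl/6 mice, to ask what a leptin-neutralizing antibody changes in fibrotic organs. WTK kidneys came from mice given vehicle in place of folic acid. IgGK kidneys came from mice given folic acid at 200 mg/kg, which injures the tubules and leads to fibrosis, plus control IgG. LepK kidneys came from mice given the same folic acid plus the leptin antibody. These mice were 10 to 12 weeks old, both antibodies were dosed at 10 mg/kg every other day for 21 days, and kidneys were taken on day 28. The study's methods give IgG or the leptin antibody to mice of the vehicle arm too, while the labels name no antibody for WTK. IgGL and LepL lungs came from 12-week-old mice given bleomycin into the trachea at 1.5 units/kg, which causes lung injury and fibrosis, with control IgG or the leptin antibody at 10 mg/kg, and were taken on day 14. Uninjured lung was not analysed here. The labels number the libraries within a group without naming animals, so the p-values measure the spread between these libraries.

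A motile cilium beats because dynein motors, held on the outer microtubule doublets of its axoneme, slide the doublets against each other, while radial spokes and a central pair of microtubules time the stroke. The transcription factor FOXJ1, with RFX factors, switches on the genes for these parts, and multicilin (MCIDAS) and cyclin O (CCNO) drive the making of many basal bodies in cells that carry many cilia. In the lung such multiciliated cells line the conducting airways and clear mucus, whereas most tubule cells of the adult mammalian kidney bear a primary cilium that does not beat.

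The libraries held totals of 25913969 to 38924788 counts, written here as counts per 1000000 (CPM) after TMM scaling within each organ, so that 1 count was worth 0.0252 to 0.0415 CPM. The TMM factors were 0.844 to 0.858 in WTK, 1.14 to 1.18 in IgGK, 0.970 to 1.05 in LepK and 0.965 to 1.02 in lung. Tissue markers matched the labels, with the 6 proximal tubule markers summing to 10765 to 46765 CPM in the kidney libraries and 30.7 to 159 CPM in the lung libraries. A gene was called when edgeR's quasi-likelihood test gave a Benjamini-Hochberg adjusted p under 0.05 over all genes tested and an absolute log2 fold change over 0.5.

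Most motile cilia genes were scarce in the vehicle kidney. On the scale of mean CPM, 15 of 38 were over 1 in WTK, 17 in IgGK and 20 in LepK, against 37 in both lung groups, with Mcidas the member under 1 CPM in lung. Per kilobase of gene length, the highest levels in WTK were 22.9 CPM for Zmynd10, which encodes a cytoplasmic factor for dynein arm assembly, 7.91 for the radial spoke gene Rsph9 and 4.81 for Cfap126, which encodes a ciliary protein (flattop). Foxj1 ranked 27 of 38 in WTK, at 0.0622 CPM per kilobase, and 4 of 38 in IgGK, at 3.26. In IgGL the order was led by Tppp3, a tubulin polymerization gene of airway ciliated cells, at 65.6 CPM per kilobase, followed by Foxj1 at 19.8, Ccdc153 at 14.5 and Rsph1 at 10.8. Most kidney levels lay far under those in lung, as the plot of both organs shows.

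**Figure D1:**
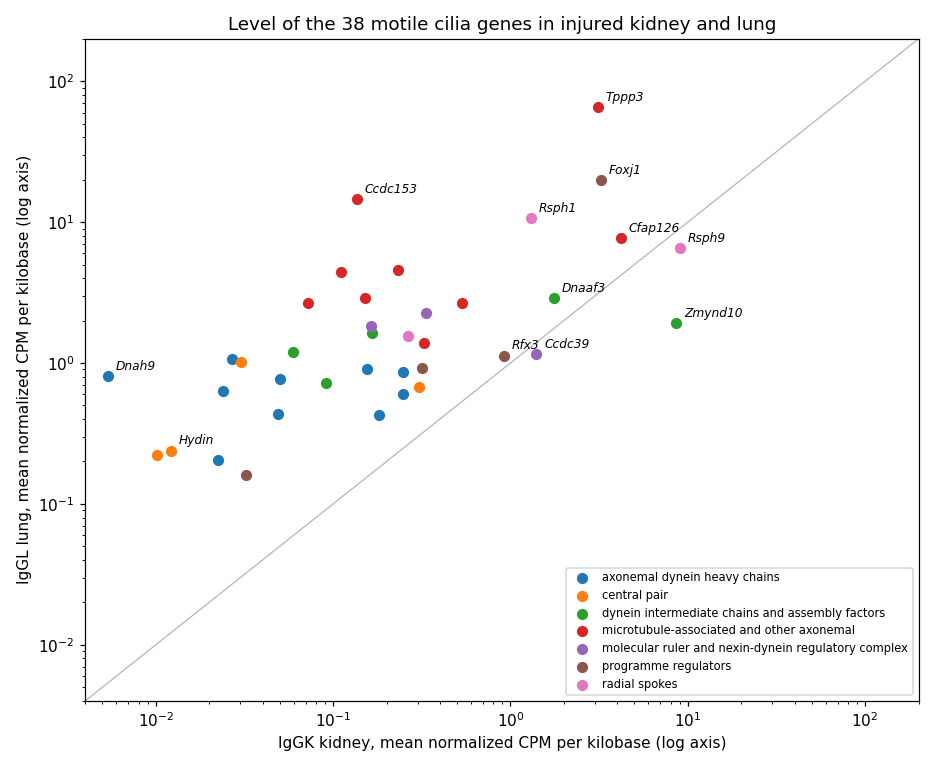
Mean normalized CPM per kilobase of the 38 genes, scaled within each organ, in IgGK kidney (horizontal log axis) and IgGL lung (vertical log axis); each point is a gene, colored by role, and the gray line marks equal levels. Zmynd10, at 8.60 in IgGK and 1.93 in IgGL, and Rsph9 lie under the line, Ccdc39 lies close to it, and Dnah9, at 0.00538 and 0.807, lies far above it.

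Foxj1 and a set of axonemal genes were higher in the folic acid kidney than in the vehicle kidney, while Zmynd10 and the outer arm motors Dnah9 and Dnah11 were lower. Of 38 members, 29 had enough counts to be tested in kidney, and in IgGK against WTK 12 of the 29 were higher and 3 were lower. Over all 19593 genes tested the same rule called 37.3%, with 21.7% higher and 15.6% lower, so that the share of members called higher, 41.4%, was above the background and the share called lower, 10.3%, was below it. Some members passed the filter through the groups where they are high, and for these the filter favors the direction. Foxj1 had 0, 6 and 7 counts in the WTK libraries, and Dnah9 had 0, 8 and 1 in the IgGK libraries, under the minimum count of 10. The same limit holds for LepK against WTK. The median log2 fold change was 0.62 over the tested members and 0.04 over all genes. The libraries of both groups did not overlap for 18 of the 29, higher in 13 and lower in 5, against 62.6% of all genes (32.5% higher and 30.1% lower).

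Foxj1 (chr11:116221530-116226225, minus strand, GRCm39) was at 0, 0.237 and 0.252 CPM in the WTK libraries, at 8.38, 9.06 and 8.18 CPM in IgGK and at 2.57, 5.06 and 6.94 CPM in LepK. Every IgGK library lay far above every WTK library, and the fitted log2 fold change was 5.64 (SE 0.53, n = 3 and 3, adjusted p 2.2e-06 by edgeR). The other regulators were not called. Rfx3, a partner of Foxj1, had 7.06, 9.79 and 7.57 CPM in WTK and 9.83, 9.12 and 11.7 CPM in IgGK, with overlapping groups and a log2 fold change of 0.33 (SE 0.17). Ccno had 1.20, 0.671 and 1.73 CPM in WTK and 0.330, 1.11 and 0.983 CPM in IgGK, and these groups overlapped too. Mcidas had no count in WTK and 8 counts in IgGK, all in 1 library. This is 2.06-fold the WTK level when WTK is set to a floor of 3 counts over the group. The gene had too few counts to be tested, and with no filter on low counts it was not called (adjusted p 0.20 by edgeR).

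**Figure D2:**
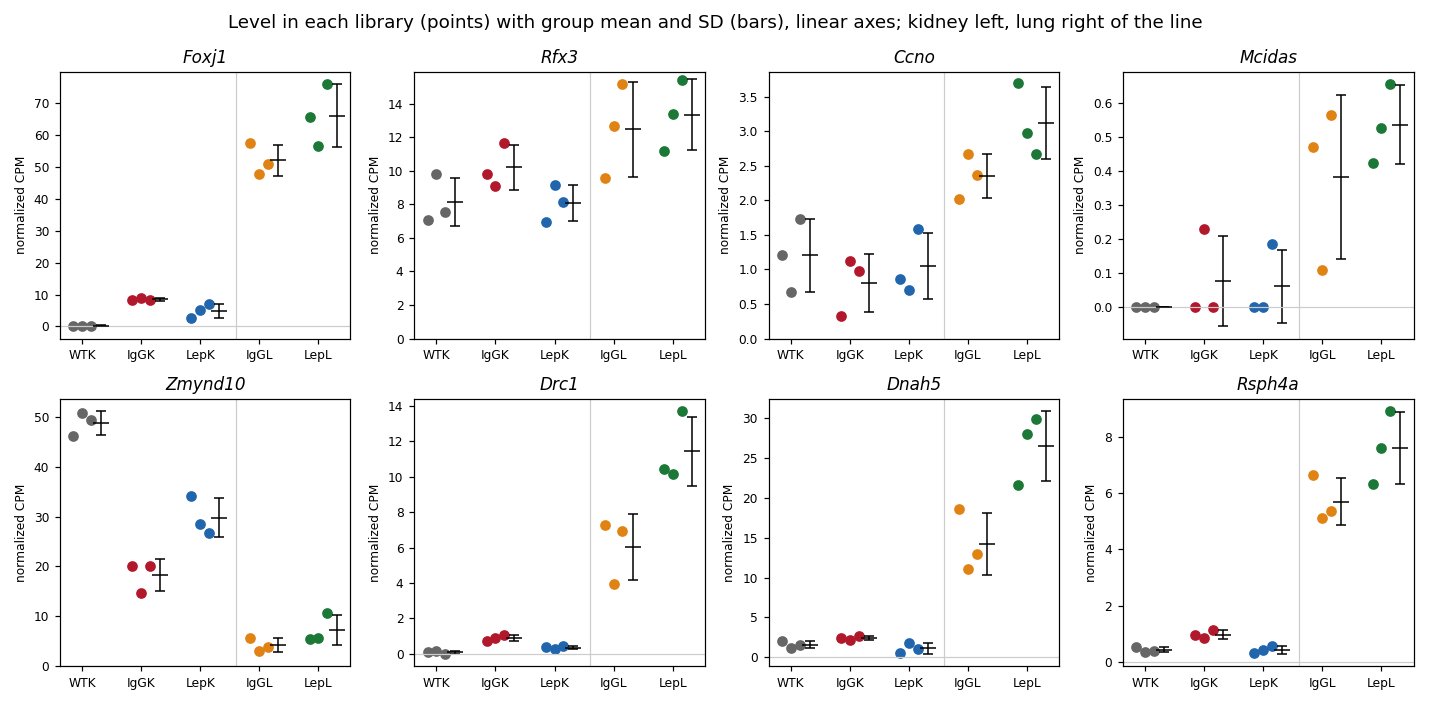
Normalized CPM (vertical linear axes) of the 4 regulators and of Zmynd10, Drc1, Dnah5 and Rsph4a in each library; points are libraries and black bars are group means with SD (n = 3). The 3 IgGK libraries of Foxj1 sit between 8.18 and 9.06, above WTK and LepK and far below lung, and Zmynd10 runs in the opposite order in kidney, from 48.8 in WTK to 18.3 in IgGK and 29.8 in LepK.

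Among the dynein heavy chains, the motors of the inner and outer arms, 3 rose and 2 fell. Dnah12, of the inner arms, had 0.415, 0.592 and 0.793 CPM in WTK and 2.90, 2.57 and 3.44 CPM in IgGK, a log2 fold change of 2.29 (SE 0.38). Dnah1, also of the inner arms, had 0.623, 0.237 and 0.685 CPM in WTK and 2.57, 2.37 and 2.11 CPM in IgGK, a log2 fold change of 2.18 (SE 0.41). Dnah2 rose less, by 0.83 (SE 0.24). The groups did not overlap for any of these 3.

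The outer arm heavy chains Dnah9 and Dnah11 went down. Dnah9 had 2.08, 1.50 and 1.05 CPM in WTK and 0, 0.229 and 0.0289 CPM in IgGK, a log2 fold change of -4.05 (SE 0.77, adjusted p 0.0007 by edgeR). Dnah11 had 1.66, 1.97 and 1.12 CPM in WTK and 0.693, 0.429 and 1.01 CPM in IgGK, a log2 fold change of -1.15 (SE 0.44), and its call held in 2 of the 6 fits that left out 1 library each. Dnah11 overlaps the gene Cdca7l on the opposite strand, and reads of these unstranded libraries cannot be told apart there. Dnah5, the third outer arm heavy chain in the list, missed the call at 0.62 (SE 0.41) on the log2 scale.

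The dynein assembly factors moved in opposite directions. Dnaaf3, which acts on dyneins in the cytoplasm, had 1.29, 0.790 and 0.613 CPM in WTK and 2.64, 4.97 and 4.08 CPM in IgGK, a log2 fold change of 2.12 (SE 0.35), although it overlaps the same-strand gene Tnni3. Zmynd10 (chr9:107424497-107428518, plus strand, GRCm39) had 46.1, 50.8 and 49.5 CPM in WTK and 20.1, 14.6 and 20.1 CPM in IgGK. All IgGK libraries lay below all WTK libraries, with a log2 fold change of -1.42 (SE 0.13, adjusted p 1.3e-06 by edgeR). The summed level of the 38 genes was alike, at 106 to 111 CPM in WTK and 107 to 110 CPM in IgGK, and Zmynd10 held the largest part of it in WTK. Without Zmynd10, a choice made after its level was seen, the other 37 summed to 60.4 ± 0.732 CPM (SD, n = 3) in WTK and 90.4 ± 4.27 CPM in IgGK.

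All 3 genes of the molecular ruler and the nexin-dynein regulatory complex rose. Drc1 (chr5:30486386-30524039, plus strand, GRCm39), a scaffold of the complex that links neighboring doublets, went from 0.0831, 0.158 and 0 CPM in WTK to 0.693, 0.915 and 1.07 CPM in IgGK, a log2 fold change of 3.44 (SE 0.72). Ccdc39 and Ccdc40, which together set the repeat length along the axoneme, rose by 0.66 (SE 0.15) and 1.28 (SE 0.48), and Ccdc39 overlaps the opposite-strand gene Ttc14. The Ccdc40 call held in 3 of 6 fits that left out 1 library.

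Of the radial spoke genes, Rsph1 rose by 1.24 (SE 0.34) and Rsph4a by 1.17 (SE 0.45), while Rsph9 had a log2 fold change of 0.19 (SE 0.13) and was not called. The Rsph4a call held in 0 of 6 fits that left out 1 library. Cfap44, of the tether that holds an inner dynein to the doublet, rose by 1.39 (SE 0.31), from 1.05 ± 0.101 to 2.75 ± 0.520 CPM. Tppp3 rose by 0.78 (SE 0.27), from 3.33 ± 0.344 to 5.72 ± 1.19 CPM, with its call kept in 2 of 6 such fits. Spag6l, the single central pair gene with enough counts, had a log2 fold change of 0.06 (SE 0.33), but reads may be shared with its near copy Spag6.

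The 9 members not tested in kidney stayed at or under 0.704 CPM in every kidney library. Of these, 5 had no count in any WTK library, so that IgGK could only be equal or higher. Against the floor of 3 counts, the IgGK level was 9.26-fold (Dnah6), 7.20-fold (Dnah7a), 5.15-fold (Spag16), 3.60-fold (Tekt4) and, as above, 2.06-fold (Mcidas). These ratios rest on 36, 28, 20, 14 and 8 counts over the IgGK group, and counts of Dnah7a are uncertain because near-identical copies of the gene exist. With no filter on low counts, Tekt4 and Mcidas were not called (adjusted p 0.076 and 0.20 by edgeR). Dnah6, Dnah7a and Spag16 were called in that fit (adjusted p 0.0020, 0.0015 and 0.028 by edgeR). The remaining 4 (Dnai1, Spag17, Hydin and Ccdc113) had 8 to 17 counts over WTK and 9 to 22 over IgGK.

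Many other cell markers moved with these changes. From WTK to IgGK, all 6 injured tubule markers were called higher (summed level 355 to 372 against 6151 to 6489 CPM), all 6 macrophage markers (154 to 179 against 1461 to 1834 CPM), all 6 fibroblast markers (135 to 191 against 1023 to 1172 CPM) and all 4 airway basal markers, which are keratins and Trp63 (5.61 to 7.68 against 30.0 to 35.7 CPM). Of 6 general epithelial markers, 4 were called higher (531 to 580 against 771 to 863 CPM). All 6 proximal tubule markers were called lower, from 44600 to 46765 CPM in WTK to 10765 to 17370 CPM in IgGK, as were 2 of 6 distal nephron markers (4208 to 4228 against 2875 to 3389 CPM). The lung epithelial lists moved in both directions. Of 8 club cell markers 2 were tested, with Cbr2 higher (1.37, SE 0.19) and Cyp2f2 lower (-1.11, SE 0.34), and the sum was 12.8 to 16.7 CPM in WTK and 20.4 to 24.7 CPM in IgGK. Of 6 alveolar type 2 markers 2 were tested, with Slc34a2 higher (4.25, SE 0.16) and Abca3 lower (-1.23, SE 0.11), and the sum was 499 to 546 CPM in WTK and 240 to 274 CPM in IgGK. Of 6 alveolar type 1 markers 5 were tested, with Pdpn (2.98, SE 0.19) and Ager (1.66, SE 0.20) higher and 0 lower (1 at an unadjusted p under 0.05, 0 by DESeq2), and the sum was 12.1 to 14.3 CPM in WTK and 56.0 to 59.4 CPM in IgGK. Scgb3a2, Bpifa1 and Sftpa1 had no count in any kidney library, and Scgb1a1 had a mean of 0.0193 CPM in IgGK. The 6 spermatid markers had no count in WTK and at most 0.114 CPM in sum in IgGK. The part of these cell types in the members' changes was not tested, and in bulk tissue more cells of a type and more RNA per cell cannot be told apart.

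Promoters from RefSeq (build GRCm38.p6, 250 bases before to 50 after the start) were at hand for 30 of the 38 members. No match to the full X-box bound by RFX factors, searched as GTTNCC, 0 to 3 bases, then GGNAAC, was found in these 30, against 0.936% of 27025 genes. Imperfect copies of this pattern were not searched, so the lack of a match does not show that an X-box is absent. In the list of other motile axoneme genes described below, 4 of the 59 with a promoter had a match (6.78%). The RFX half-site GTTGCCA, searched on both strands and contained in some X-boxes, was found in 8 of 30 (26.7%) against 5.02% of all genes. The forkhead core GTAAACA, on both strands, was found in 2 of 30 (6.67%) against 4.05%. The members with a half-site were Mcidas, Ccno, Dnah10, Hydin, Tekt1, Cfap44, Drc1 and Zmynd10, and the promoters of the last 3, which were called in IgGK against WTK, are shown because Drc1 and Cfap44 rose where Zmynd10 fell. These 3 were picked after their values were seen. They are the plus strand, 5′ to 3′, at chr5:30281143-30281442, chr16:44394549-44394848 and chr9:107547054-107547353 of GRCm38.p6, with each half-site or its reverse complement in capitals.
Drc1: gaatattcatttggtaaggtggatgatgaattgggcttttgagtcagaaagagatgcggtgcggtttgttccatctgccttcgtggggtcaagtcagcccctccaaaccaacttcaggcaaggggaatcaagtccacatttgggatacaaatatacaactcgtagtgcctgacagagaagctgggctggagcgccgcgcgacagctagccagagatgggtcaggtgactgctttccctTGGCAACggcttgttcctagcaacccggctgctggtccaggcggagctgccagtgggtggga
Cfap44: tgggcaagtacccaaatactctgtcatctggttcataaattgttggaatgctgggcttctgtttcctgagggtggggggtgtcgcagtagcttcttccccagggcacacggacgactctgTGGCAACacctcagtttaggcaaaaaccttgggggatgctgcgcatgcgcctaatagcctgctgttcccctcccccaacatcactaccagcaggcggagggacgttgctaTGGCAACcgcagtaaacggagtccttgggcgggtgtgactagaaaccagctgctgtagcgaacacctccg
Zmynd10: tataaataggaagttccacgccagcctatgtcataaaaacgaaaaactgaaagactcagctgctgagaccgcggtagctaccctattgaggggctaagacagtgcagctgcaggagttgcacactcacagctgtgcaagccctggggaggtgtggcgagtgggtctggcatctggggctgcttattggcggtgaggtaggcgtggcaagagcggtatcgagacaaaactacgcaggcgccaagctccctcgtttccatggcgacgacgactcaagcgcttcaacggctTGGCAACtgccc
All of these matches read TGGCAAC on the strand printed, starting 12 bases before the start in Drc1, 130 and 20 bases before it in Cfap44, and at base 39 of the transcribed side, counted from 1 at the start, in Zmynd10. A match is a description of the letters and not of binding.

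With the leptin antibody, Zmynd10 and Dnah11 were higher in the folic acid kidney and no member was called lower. In LepK against IgGK, 2 of the 29 tested members were called higher and 0 lower by edgeR, beside 10.4% of all genes (4.38% higher and 5.99% lower). At an unadjusted p under 0.05 there were 8 members, 3 of them higher, and DESeq2 called 2 higher and 2 lower. The median log2 fold change was -0.0072 over the members and -0.012 over all genes. When libraries were scaled by their totals alone, 1 member was higher and 3 were lower.

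Zmynd10 had 34.1, 28.5 and 26.7 CPM in LepK, above all IgGK libraries (20.1, 14.6 and 20.1) and below all WTK libraries, with a log2 fold change of 0.70 against IgGK (SE 0.13, adjusted p 0.0024 by edgeR). Dnah11 had 1.09, 2.68 and 1.77 CPM in LepK, all above IgGK, and rose by 1.37 (SE 0.44, adjusted p 0.043 by edgeR), with the call kept in 2 of 6 fits that left out 1 library. Dnah9 had 0.263, 0.235 and 0.332 CPM in LepK, above the 3 IgGK libraries, but was not called (log2 fold change 1.59, SE 0.83). It was called higher without IgGK replicate 2, which held 8 of its 9 IgGK counts (log2 fold change 3.84, adjusted p 0.024 by edgeR).

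Foxj1, Rsph4a and Drc1, which rose with folic acid, and Dnah5, which was not called there, were fitted lower with the antibody without passing the test. For Foxj1 all 3 LepK libraries lay below all 3 IgGK libraries, and the log2 fold change was -0.82 (SE 0.37, adjusted p 0.14 by edgeR). Its adjusted p was 0.047 by DESeq2 and 0.010 with no filter on low counts, so that its call turned on the method, as did those of the next 3. LepK replicate 1 was the lowest of the group, at 2.57 CPM. Rsph4a had 0.296, 0.402 and 0.554 CPM in LepK, all below the 0.956, 0.829 and 1.13 CPM of IgGK, with a log2 fold change of -1.21 (SE 0.44, adjusted p 0.074 by edgeR), and it was called lower in 2 of 9 alternatives that kept every library, scaling by totals alone and all 15 libraries in 1 fit. Dnah5 had 0.494, 1.81 and 0.997 CPM in LepK against 2.37, 2.17 and 2.72 CPM in IgGK, a log2 fold change of -1.13 (SE 0.42, adjusted p 0.077 by edgeR). It was called lower in 4 of 10 such alternatives, DESeq2 among them (adjusted p 0.037), and without LepK replicate 2 (log2 fold change -1.70, adjusted p 0.015 by edgeR). Drc1 had 0.362, 0.268 and 0.406 CPM in LepK, all below IgGK, a log2 fold change of -1.36 (SE 0.59, adjusted p 0.13 by edgeR), and was called lower with all 15 libraries in 1 fit. The filter favors this direction for Drc1, which passed it within kidney through IgGK. The groups of libraries did not overlap for 12 of the 29 members, 3 higher and 9 lower, against 37.4% of all genes (17.8% higher and 19.5% lower).

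Rsph1 and Tppp3 differed little between LepK and IgGK, with log2 fold changes of -0.01 (SE 0.32) and -0.04 (SE 0.26). Over the same comparison, 4 of 6 proximal tubule markers were called higher (10765 to 17370 CPM in IgGK, 23778 to 32548 CPM in LepK), 6 of 6 injured tubule markers lower (to 2436 to 3769 CPM), and 5 of 6 macrophage and 5 of 6 fibroblast markers lower. Also called were 4 of 6 distal nephron markers, higher (2875 to 3389 CPM in IgGK, 4178 to 4605 CPM in LepK), 2 of 4 airway basal markers, lower (Krt5 and Krt14; 30.0 to 35.7 against 17.3 to 22.8 CPM), and Slc34a2, Pdpn and the general epithelial marker Krt19, each lower. Their part in the values of Zmynd10 and Foxj1 was not tested.

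**Figure D3:**
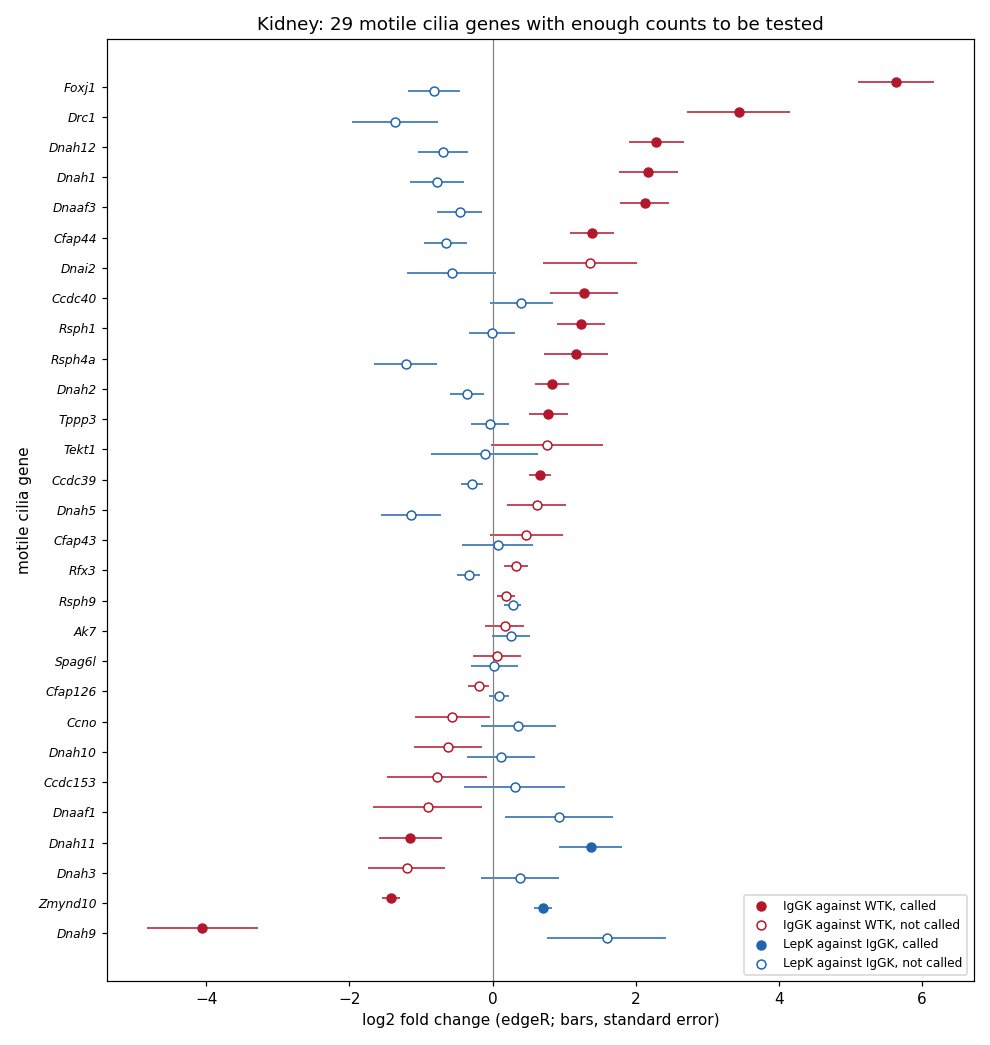
Fitted log2 fold change (horizontal axis, bars are the standard error) of the 29 tested members in kidney for IgGK against WTK (red) and LepK against IgGK (blue); filled points were called. The comparisons share the IgGK libraries. The widest changes with folic acid are Foxj1 at 5.64 and Dnah9 at -4.05, and the filled blue points are Dnah11 at 1.37 and Zmynd10 at 0.70.

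Set against the vehicle kidney, the antibody-treated kidney still held more Foxj1 transcript. In LepK against WTK 8 of 29 tested members were called higher and 2 lower, beside 22.5% of all genes (15.2% higher and 7.3% lower). Foxj1 had a log2 fold change of 4.82 (SE 0.54, adjusted p 3.4e-05 by edgeR). Dnaaf3 (1.67), Dnah12 (1.60), Rsph1 (1.23), Ccdc40 (1.68), Dnah1 (1.40), Tppp3 (0.75) and Drc1 (2.08) were also higher on the log2 scale, and Zmynd10 (-0.71) and Dnah9 (-2.46) were lower. The calls of Tppp3 and Drc1 each held in 1 of 6 fits that left out 1 library, and with scaling by library totals alone 12 members were higher and 1 lower. The libraries did not overlap for 11 members that were higher and 2 that were lower, against 25.6% and 24.6% of all genes (50.2% in both directions). This comparison shares its libraries with both others in kidney.

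In the bleomycin lung nearly all motile cilia genes were fitted higher with the antibody, but 1 passed the test. In LepL against IgGL all 38 members were tested, 36 had a log2 fold change above 0, and the median was 0.50 against 0.0033 over all genes. Dnah5 was called higher, so that 1 member was higher and 0 were lower by edgeR, beside 4.14% of all 19617 genes tested (1.78% higher and 2.36% lower). At an unadjusted p under 0.05 there were 19 members, all of them higher, and DESeq2 called 14 higher and 0 lower. The libraries of LepL lay wholly above those of IgGL for 18 of 38 members and wholly below for 0, against 16% and 17.3% of all genes (33.3% in both directions).

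Dnah5 (chr15:28203898-28472198, plus strand, GRCm39) had 18.6, 11.1 and 12.9 CPM in IgGL and 21.6, 28.1 and 29.9 CPM in LepL. The groups did not overlap, and the log2 fold change was 0.90 (SE 0.21, adjusted p 0.0499 by edgeR). This call lay at the threshold and held in 1 of 6 fits that left out 1 library. Rsph1 followed with 15.04, 11.4 and 17.8 CPM in IgGL and 22.0, 24.9 and 32.3 CPM in LepL, again without overlap (log2 fold change 0.84, SE 0.20, adjusted p 0.052 by edgeR). Ccdc113, a coiled-coil gene of the axoneme, had 6.07, 5.58 and 5.55 CPM in IgGL and 8.82, 8.94 and 11.4 CPM in LepL, with a log2 fold change of 0.76 (SE 0.19).

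None of the regulators was called in lung. Foxj1 had 57.3, 47.7 and 51.1 CPM in IgGL and 65.7, 56.4 and 76.0 CPM in LepL, so that the groups overlapped, with a log2 fold change of 0.34 (SE 0.13, adjusted p 0.13 by edgeR). Rfx3 was at 0.10 (SE 0.21), Ccno at 0.40 (SE 0.27) and Mcidas at 0.50 (SE 0.63) on the log2 scale. Among the parts, fitted values ran from -0.03 for Dnah12 and Dnah9 to 1.08 for the central pair gene Spag6l. By role the medians were 0.80 for intermediate chains and assembly factors, 0.76 for central pair genes, 0.44 for dynein heavy chains, 0.43 for radial spokes and 0.28 for the molecular ruler and regulatory complex.

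**Figure D4:**
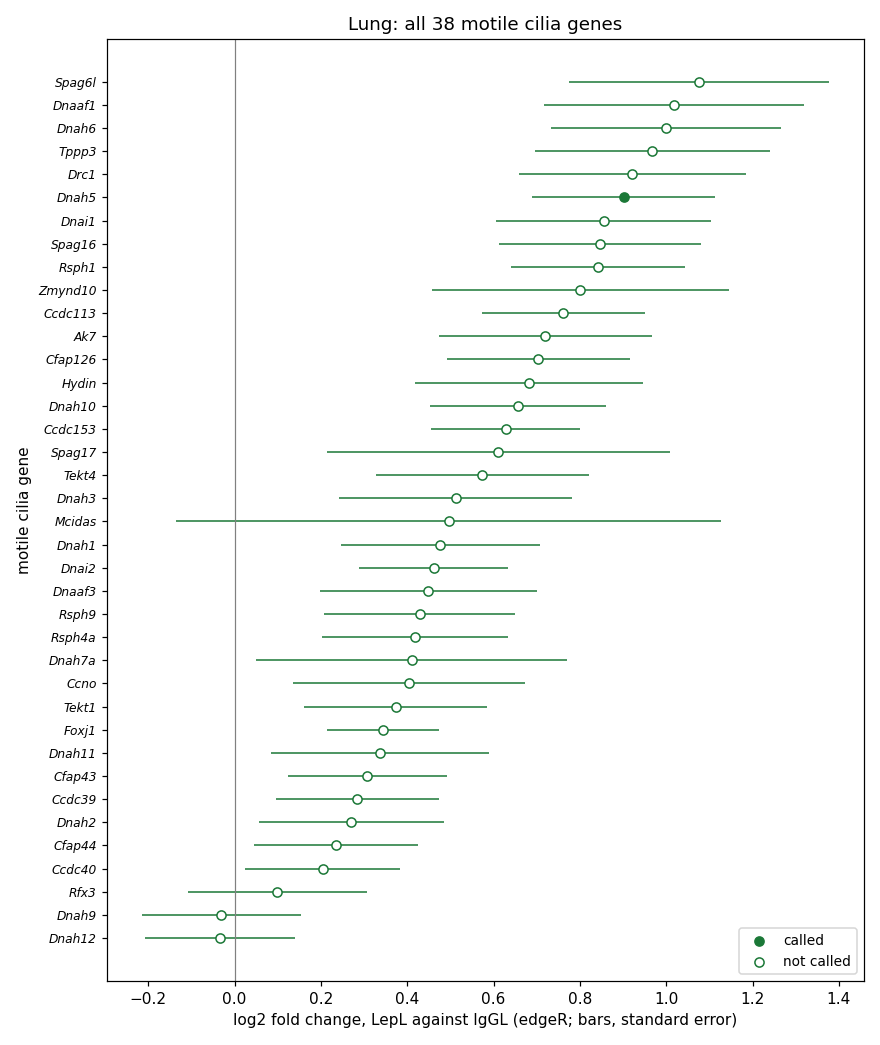
Fitted log2 fold change (horizontal axis, bars are the standard error) of the 38 members in LepL against IgGL; the filled point was called. Spag6l leads at 1.08, Dnah5 is the filled point at 0.90, and Dnah9 and Dnah12 lie just under 0.

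The count of members called in lung changed with the libraries used. Without IgGL replicate 1, 15 members were called higher and 17.3% of all genes were called, and without any 1 of the other 5 libraries no member was called, with 0% to 0.107% of all genes called. The summed level of the 38 genes was 391 to 538 CPM in IgGL and 622 to 926 CPM in LepL, which do not overlap. Relative to each gene's mean over the lung libraries, the median over the 37 members with a mean of at least 1 CPM was -0.08, -0.63 and -0.21 on the log2 scale in IgGL and 0.06, 0.17 and 0.41 in LepL, so that IgGL replicate 2 was lowest and LepL replicate 3 highest.

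Some markers of other lung epithelial cells were also higher with the antibody. Of the 8 club cell markers, 3 were called higher (Cbr2, Scgb3a2 and Cyp2f2), and their summed level was 8100 to 10574 CPM in IgGL and 13844 to 27500 CPM in LepL. Of these 8, 4 were higher at an unadjusted p under 0.05 by edgeR and 4 were called higher by DESeq2, with 0 lower in both. Of the 6 alveolar type 2 markers, which belong to surfactant-making cells without motile cilia, 3 were called higher (Sftpa1, Sftpc and Lamp3), with sums of 6736 to 12691 CPM in IgGL and 18276 to 24957 CPM in LepL. All 6 were higher at an unadjusted p under 0.05 by edgeR and were called higher by DESeq2. Their median log2 fold change was 1.26, against 0.50 for the members. The 4 airway basal and 6 alveolar type 1 markers held 0 calls by edgeR, with 3 and 5 higher at an unadjusted p under 0.05 and 0 and 2 called by DESeq2. The 6 general epithelial markers held 0 calls by edgeR or DESeq2, with 1 higher and 3 lower at an unadjusted p under 0.05, and 4 of 6 fibroblast markers were called lower. Of 6 macrophage markers 1 was called lower by edgeR (Mrc1) and 0 higher, and DESeq2 called 1 higher and 4 lower. Their summed level was 3247 to 6258 CPM in IgGL and 7693 to 7943 CPM in LepL. In the libraries taken singly, the club cell medians were -0.25, -0.90 and -0.22 in IgGL and -0.27, 0.39 and 0.61 in LepL, lowest and highest in the same libraries as the members. The alveolar type 2 medians were -0.26, -0.82 and -1.33 in IgGL and 0.24, 0.50 and 0.69 in LepL, and the alveolar type 1 medians -0.04, -0.21 and -0.53 in IgGL and 0.15, 0.25 and 0.22 in LepL, so that both were lowest in IgGL replicate 3, and type 1 highest in LepL replicate 2, unlike the members. The part of the cell makeup of each piece of lung in these values was not tested.

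**Figure D5:**
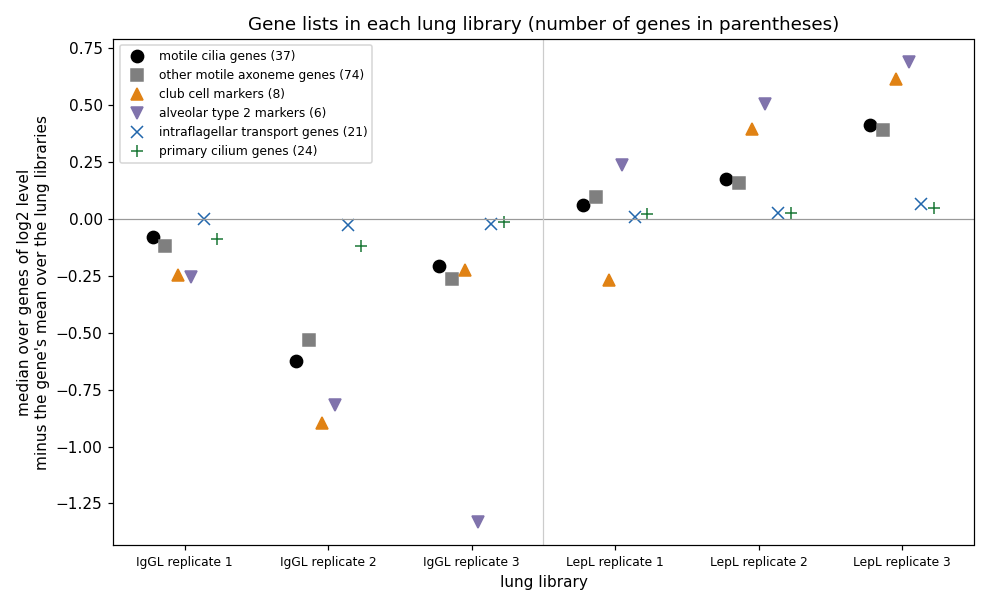
Median over the genes of each list of the log2 level minus the gene's mean over the 6 lung libraries (vertical axis), for each lung library (horizontal axis). Motile cilia genes run from -0.63 in IgGL replicate 2 to 0.41 in LepL replicate 3, with other axoneme genes close beside them, club cell and alveolar type 2 markers more widely spread, and intraflagellar transport genes near 0.

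The share of members whose antibody effect was called as different between the organs was close to that of all genes, but every such member was lower. Among all genes, 3.62% were called lower. The 3 called members were among the 29 tested within kidney, and 0 of the 9 that passed the filter through lung were called. Drc1 passed the filter within kidney through IgGK, where it was high, and that filter favors its lower fit in LepK. An interaction fit over 12 libraries, taking LepK against IgGK minus LepL against IgGL, called 3 of 38 members (7.89%), Drc1, Dnah5 and Rsph4a, lower and 0 higher by edgeR, beside 7.12% of all 21488 genes tested at an adjusted p under 0.05 (3.51% higher and 3.62% lower). At an unadjusted p under 0.05 there were 15 members, 1 of them higher, and DESeq2 called 7 lower and 0 higher. Drc1 differed by -2.26 (SE 0.43, adjusted p 0.016 by edgeR), since it was fitted lower with the antibody in kidney, as given above, and went from 7.28, 3.92 and 6.92 CPM in IgGL to 10.4, 10.1 and 13.7 CPM in LepL. Dnah5 differed by -2.01 (SE 0.45, adjusted p 0.024 by edgeR). Rsph4a (chr10:33781107-33792017, plus strand, GRCm39) differed by -1.61 (SE 0.39, adjusted p 0.030 by edgeR), with 6.65, 5.11 and 5.35 CPM in IgGL and 6.33, 7.59 and 8.92 CPM in LepL, which overlap. The Drc1 call held in all 12 fits that left out 1 library, the Dnah5 call in 6 and the Rsph4a call in 3. Foxj1 differed by -1.14 (SE 0.32) and missed the threshold (adjusted p 0.051 by edgeR). Organ, injury agent and day differ together between these arms and cannot be told apart.

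Most of these transcripts were higher in the injured lung than in the injured kidney. In IgGL against IgGK, of the 29 members with enough counts to be tested within kidney, 24 were called higher and 3 lower, with a median log2 difference of 2.30, beside 50.2% of all 21696 genes (23.5% higher and 26.7% lower). The other 9 passed the filter through lung, where they are high, and 8 of them were called higher, a direction that the filter favors. The largest fitted differences were 6.86 (SE 0.51) for Dnah9 and 6.45 (SE 0.37) for Ccdc153. Dnah9 had 9 counts over IgGK, so the size of its difference is uncertain, at 6.35 to 9.15 when 1 library was left out. Foxj1 was higher by 2.35 (SE 0.26). The 3 lower members were Zmynd10 at -2.40 (SE 0.26), Rsph9 at -0.71 (SE 0.18) and Ccdc39 at -0.53 (SE 0.17), and Rsph9 overlaps the gene Mrps18a. Rfx3 (0.03, SE 0.19), Dnaaf3 (0.47, SE 0.30) and Mcidas (1.98, SE 1.22) were not called.

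A list of 80 other motile axoneme genes, of which 79 were in the table, is set beside the members. In IgGK against WTK 16 of its 55 tested genes were called higher and 3 lower, 34.5% in all, with a median of 0.43. Of all genes 37.3% were called, 21.7% higher and 15.6% lower. Enkur, which encodes a protein inside the axonemal microtubules, rose by 2.39 (SE 0.49), whereas Ropn1l and Rsph3b, both of the radial spoke, fell by 1.23 (SE 0.16) and 0.80 (SE 0.08). In LepK against IgGK 1 of 55 (1.82%) was called higher, Ropn1l (0.94, SE 0.16), and 0 lower by edgeR. Of all genes 10.4% were called, 4.38% higher and 5.99% lower. At an unadjusted p under 0.05, 2 were higher and 4 lower, with 0 called lower by DESeq2. Ropn1l had 9.89, 10.9 and 10.9 CPM in WTK, 4.65, 4.89 and 3.93 in IgGK and 8.36, 7.51 and 9.97 in LepK, an order like that of Zmynd10. In LepL against IgGL 3 of 76 (3.95%) were called higher and 0 lower by edgeR. Of all genes 4.14% were called, 1.78% higher and 2.36% lower. The 3 were Lrrc23 (1.44, SE 0.28), Dnai4 (1.17, SE 0.25) and Dnali1 (1.17, SE 0.26). In the list 70 were fitted above 0, with a median of 0.49. At an unadjusted p under 0.05, 31 were higher and 0 lower, against 20 called higher and 0 lower by DESeq2. Beside 7.12% of all genes called in the interaction, 3.51% higher and 3.62% lower, 3 of the list (3.95%) were called lower and 0 higher. Here 0 were higher also at an unadjusted p under 0.05 and by DESeq2. Of the 3 called lower, Dnai4 (-1.35, SE 0.35) was also tested within kidney. Mlf1 and Cfap161, with 52 and 22 counts over IgGK and 8 and 4 over LepK, passed the filter through lung.

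Among the genes that amplify centrioles, the 17 of the multiciliogenesis list, those called with folic acid were all higher. In IgGK against WTK 4 of 13 tested (30.8%) were called higher and 0 lower (2 at an unadjusted p under 0.05, 0 by DESeq2). Of all genes 37.3% were called, 21.7% higher. Stil (1.95, SE 0.40), Ccp110 (0.53, SE 0.15) and Sass6 (1.42, SE 0.46) were among the 4, and also serve the centriole cycle of dividing cells. Gmnc, Cdc20b and Foxn4 had no count in IgGK. In lung 2 of 16 (12.5%) were called higher with the antibody and 0 lower by edgeR or DESeq2 (3 lower at an unadjusted p under 0.05). This stands beside 4.14% of all genes called and 1.78% called higher. Myb, which acts early in multiciliated cells, had 4.49, 4.50 and 4.29 CPM in IgGL and 9.96, 9.96 and 13.7 CPM in LepL, without overlap (log2 fold change 1.34, SE 0.20, adjusted p 0.033 by edgeR), and Ccp110 rose by 0.56 (SE 0.12). Which cells of the lung hold the Myb transcript was not tested, and Foxj1, Mcidas and Ccno were not called there.

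Of the genes shared with the non-motile primary cilium, few were called with folic acid, and most of those were lower. Of 22 intraflagellar transport genes, which carry cargo along every cilium, 1 was called higher (Kif17) and 2 lower (Ift122 and Ift57) in IgGK against WTK, 13.6% beside 37.3% of all genes. At an unadjusted p under 0.05 these were 3 higher and 9 lower, and the summed level was 677 to 682 CPM in WTK and 568 to 613 CPM in IgGK, without overlap. For the antibody in kidney and in lung 0 were called by edgeR, beside 10.4% and 4.14% of all genes, with 6 and 7 at an unadjusted p under 0.05 and 0 and 2 called by DESeq2. Of 24 primary cilium genes, 1 was called higher and 4 lower in IgGK against WTK (20.8%), with 5 higher and 10 lower at an unadjusted p under 0.05, and the summed level was 920 to 944 CPM in WTK and 755 to 823 CPM in IgGK, again without overlap. In LepK against IgGK 0 were called by edgeR or DESeq2 (7 at an unadjusted p under 0.05). In lung 1 of 24 was called lower (4.17%), the channel gene Pkd2 (-0.97, SE 0.22), beside 4.14% of all genes called and 2.36% called lower. The medians of both lists in lung were 0.05 and 0.02, against 0.50 for the motile cilia genes.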

How the data were processed

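RNA from kidney and lung was made into poly(A), non-directional libraries and sequenced by a service provider. The authors deposited a table of read counts per gene for 15 libraries, 3 in each of 5 groups, with gene positions and the gene length in bases. The submitters' processing notes name GRCm39 and DESeq2 without versions, and the aligner, counter and annotation are not given in the sources used here. The table also holds FPKM values, group means and the authors' own fold changes and p-values for 3 comparisons, and none of these was used.

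The counts were fitted with edgeR 4.0.16 in R 4.3.3 (glmQLFit and glmQLFTest, TMM scaling, filterByExpr with a minimum count of 10 and a minimum total of 15) over all genes, with Benjamini-Hochberg adjustment over all genes tested. A call needed an adjusted p under 0.05 and an absolute log2 fold change over 0.5, or the adjusted p alone for the difference between organs. The 3 kidney groups, the 6 lung libraries, 12 libraries for the difference between organs and all 15 for lung against kidney were each fitted together, and the kidney comparisons share libraries. SEs are the fold change over the root of the test statistic. Levels are TMM-normalized CPM within an organ, per kilobase where genes are compared. The scripts were tested on simulated data. DESeq2 1.42.0, other scalings, filters and sample sets, and leaving out each library were tried as alternatives.

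Total counts were 25913969 to 38924788 a library, and 3 libraries a group limit the precision more than depth, except for members under about 1 CPM. The members and all lists were chosen with earlier results of these data known. Named genes were the 4 regulators, the called members and, from each other list, up to 3 called genes of smallest adjusted p; genes named beyond these were chosen after their values were seen. Gene symbols and positions are those of the table, promoters are RefSeq's, of another build, and the 8 members with no promoter there were left out of the motif search.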

Additional observations from a re-analysis of the deposited data

Results flagged for a closer look

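For 3 of 38 members (7.89%) the response to the antibody differed between the organs by a test of the difference itself, kidney minus lung, a share close to the 7.12% of all genes called in the same fit. All 3 were called lower, beside 3.62% of all genes called lower. Drc1 differed by -2.26 on the log2 scale, with its LepK libraries (0.362, 0.268 and 0.406 CPM) below the IgGK libraries (0.693, 0.915 and 1.07 CPM) and its LepL libraries (10.4, 10.1 and 13.7 CPM) above the IgGL libraries (7.28, 3.92 and 6.92 CPM). Dnah5 differed by -2.01, with all LepK libraries below IgGK and all LepL libraries above IgGL. Rsph4a differed by -1.61, with all LepK libraries below IgGK and overlapping groups in lung. Drc1 was called in all 12 fits that left out 1 library, Dnah5 in 6 and Rsph4a in 3. Within kidney Drc1 passed the filter through IgGK, where it was high, and that filter favors its lower fit in LepK.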

How the results depend on the processing

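No called result changed direction under an alternative. For IgGK against WTK the members' median log2 fold change, 0.62, became 1.06 with scaling by library totals alone, 0.66 with upper quartile scaling and with DESeq2, 0.72 with no filter on low counts, 0.65 with only the compared groups and 0.72 with all 15 libraries in 1 fit; with no filter 23.2% of all genes were called. Scaling by totals alone moved the median of all genes too, to 0.48 here, -0.19 for LepK against IgGK, 0.29 for LepK against WTK and -0.25 for kidney minus lung. For LepK against IgGK 1 member was higher with totals alone, with the replicate block, with only the compared groups and with all 15 libraries, against 2; 3 were lower with totals alone and all 15 libraries and 2 with DESeq2 and no filter; the median was -0.19 with totals alone, and 20.5% of all genes were called with no fold threshold. For LepK against WTK 1 member was lower with totals alone and with a mean of at least 1 CPM, the median was 0.68 with totals alone, and 14.3% and 38.6% of all genes were called with no filter and with no fold threshold. For LepL against IgGL 0 members were higher with totals alone and with the replicate block, 2 with upper quartile scaling, 14 with DESeq2, 15 with no filter and 7 with all 15 libraries; 12.2%, 7.66%, 0.0204% and 10.6% of all genes were called with DESeq2, no filter, the block and all 15 libraries. For kidney minus lung 8 members were lower with totals alone and 7 with DESeq2 and with no filter, the median was -0.81 with totals alone, and 13.9% and 4.68% of all genes were called with DESeq2 and the block. For IgGL against IgGK 29.6% were called with no filter. The cause of these moves was not tested.

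Leaving out 1 library at a time gave 10 to 12 higher and 2 to 4 lower members for IgGK against WTK (median 0.35 to 0.67; 32.9% to 35.6% of all genes called), 1 to 2 and 0 to 1 for LepK against IgGK (median -0.12 to 0.071; 6.44% to 11.2%), 6 to 9 and 1 to 2 for LepK against WTK (median 0.36 to 0.50; 18% to 24.5%), 0 to 15 and 0 to 0 for LepL against IgGL (median 0.38 to 0.67; 0% to 17.3%), 0 to 1 and 1 to 10 for kidney minus lung (median -0.73 to -0.42; 1.58% to 16.9%) and 30 to 33 and 2 to 3 for IgGL against IgGK (median 2.55 to 2.86; 46.2% to 49.4%). The highest values for both comparisons in lung came without IgGL replicate 1. The spread was pooled over groups in these fits.

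Replicate numbers were not shown to pair the libraries: deviations of same-numbered IgGK and LepK libraries correlated at 0.277, 0.242 and -0.053, and the block moved the counts as given above. The members under about 1 CPM in kidney are limited by depth, and all of them by 3 libraries a group.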
